A study of Homo sapiens with 40 samples.

Results

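The response of BT474 chromatin to 12 h of heregulin (HRG) was described from 4 of the 40 libraries of the series, 2 treated with HRG and 2 with vehicle. The deposited file of every library is a list of ATAC-seq peaks, intervals in which a transposase had cut open chromatin more often than in the rest of that library. Peaks of the 4 lists on chromosomes 1 to 22 and X that overlapped by at least 1 bp were merged, which gave 57555 regions on GRCh38. A region was counted as opened after HRG when both HRG libraries and neither control library had a peak there, and as closed in the reverse case. Regions with a peak in all 4 libraries were compared by rank percentile, the place of a peak's score in its own list, on which 100 is the strongest peak. The choice of the 4 libraries rested on their labels and not on a measured value, but earlier results of these data were known when it was made.

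BT474 is an established breast ductal carcinoma line with amplified HER2 that responds to the antibody trastuzumab. The cells of all the groups used here were serum-starved before treatment. HRG-BT474 cells then received HRG, and control-BT474 cells received water, for 12 h. The same arms at 1 and 24 h, the untreated 0 h baseline, EGF-BT474 cells (epidermal growth factor) and BT474R, a trastuzumab-resistant derivative of the line, were read only to see what the 12 h regions did elsewhere. Each group had 2 libraries. The labels do not say that these came from separate cultures, so p-values measure the spread between these libraries, which may be technical. Of 12 luminal epithelial markers, 11 had a promoter peak in all 4 libraries (TFAP2B had none), against 0 of 8 immune, 2 of 8 fibroblast, 2 of 8 endothelial and 4 of 8 basal or myoepithelial markers.

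HRG is a ligand of the receptor tyrosine kinases HER3 and HER4. HER3 has little kinase activity of its own and signals as a dimer with HER2, the receptor amplified in BT474, through the RAS-MAP kinase and PI3K-AKT pathways. MAP kinase signalling induces immediate early genes, among them EGR1, NR4A1 and the FOS and JUN families, whose products form AP-1 dimers that bind enhancers with the sequence TGANTCA. The same pathway induces its own inhibitors, such as the Sprouty and DUSP families. GATA3, FOXA1 and the oestrogen receptor ESR1 are transcription factors that define the luminal identity of such cells.

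The sequences around the summits of the strongest opened regions show the motif that recurs below. Each line gives the plus strand of GRCh38 for 50 bases on either side of the summit, in lower case, with an AP-1 match (TGANTCA on either strand) in capitals. These are the 5 opened regions with the highest rank percentile that held a match within 50 bp of the summit.
Region on chromosome 16, chr16:66082104-66082204: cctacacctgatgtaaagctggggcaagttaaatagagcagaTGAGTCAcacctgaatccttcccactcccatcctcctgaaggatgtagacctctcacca
SLC25A51, chr9:37954146-37954246: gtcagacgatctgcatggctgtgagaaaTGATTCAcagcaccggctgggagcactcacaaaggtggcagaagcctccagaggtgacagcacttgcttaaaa
Region on chromosome 2, chr2:29583129-29583229: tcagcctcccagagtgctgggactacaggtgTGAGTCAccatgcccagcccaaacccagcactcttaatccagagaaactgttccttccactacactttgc
PARL, chr3:183925176-183925276: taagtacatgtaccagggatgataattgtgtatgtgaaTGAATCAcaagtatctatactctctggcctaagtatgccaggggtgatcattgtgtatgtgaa
SLIT3, chr5:169350886-169350986: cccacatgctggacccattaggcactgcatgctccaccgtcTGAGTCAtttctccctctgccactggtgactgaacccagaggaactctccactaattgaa

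The next lines show the 2 strongest opened regions without a match in this window, although both held one between 50 and 100 bp from the summit.
ATP8B1, chr18:57737856-57737956: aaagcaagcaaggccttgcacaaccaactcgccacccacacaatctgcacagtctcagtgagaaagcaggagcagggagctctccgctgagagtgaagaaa
Region on chromosome X, chrX:150201058-150201158: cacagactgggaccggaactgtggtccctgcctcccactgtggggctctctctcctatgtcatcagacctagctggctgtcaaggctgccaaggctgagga

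Among the closed regions, the 2 strongest held no AP-1 match within 100 bp of the summit. They are followed by 1 closed region with a GATA match (AGATAA) and 1 with an SRF match in capitals, both picked after their values were seen to show these motifs in place.
NR4A1, chr12:52060301-52060401: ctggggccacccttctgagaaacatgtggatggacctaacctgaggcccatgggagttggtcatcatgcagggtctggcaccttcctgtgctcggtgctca
Region on chromosome 6, chr6:120142081-120142181: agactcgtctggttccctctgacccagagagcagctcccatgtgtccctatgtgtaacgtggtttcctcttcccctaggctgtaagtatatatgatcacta
NPAS3, chr14:33009997-33010097: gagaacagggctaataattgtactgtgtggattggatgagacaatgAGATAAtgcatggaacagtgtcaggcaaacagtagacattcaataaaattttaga
GNB4, chr3:179432544-179432644: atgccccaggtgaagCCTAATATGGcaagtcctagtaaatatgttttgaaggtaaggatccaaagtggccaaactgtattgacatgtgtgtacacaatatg

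Regions near the receptor gene EGFR and the cell cycle kinase gene CDK6, which held AP-1 matches (in capitals), and the region past EGR1, which held none, are shown as examples of differences near listed genes. They were chosen after their values were seen.
EGFR, chr7:55186372-55186472: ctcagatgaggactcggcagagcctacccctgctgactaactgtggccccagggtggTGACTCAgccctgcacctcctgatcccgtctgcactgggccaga
CDK6, chr7:92763746-92763846: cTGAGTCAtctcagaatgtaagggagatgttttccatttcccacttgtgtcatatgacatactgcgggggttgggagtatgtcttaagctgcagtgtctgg
EGR1, chr5:138470205-138470305: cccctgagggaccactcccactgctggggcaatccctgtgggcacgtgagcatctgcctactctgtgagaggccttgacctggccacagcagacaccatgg

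More peaks were called after HRG. The HRG libraries held 53484 and 52986 peaks and the control libraries 49386 and 49767, so that both HRG lists were longer than both control lists. The means were 53235 ± 352 and 49576.5 ± 269 (SD, n = 2 each), a difference of 3658.5 peaks or 7.38% of the control mean. The exact two-sided permutation test gave p = 0.333, the smallest p that 2 against 2 libraries allow. Peaks covered 35.1 ± 0.351 Mb after HRG and 31.7 ± 0.803 Mb in control (SD, n = 2 each). The files give no read totals. The depth of each library was therefore unknown, and its part in this difference was not tested. Replicates shared 85.8% of covered bases for HRG and 84.6% for control as the Jaccard index, and libraries of different treatments 79.6 to 81.0%.

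Most of the accessible regions were common to both treatments. Of the 57555 regions, 43427 (75.5%) had a peak in all 4 libraries. HRG opened 3476 regions (6.04% of all) and closed 782 (1.36%), so that 81.6% of the regions separated by treatment were opened. With the same number of top peaks taken from every list, 2261 regions opened and 1502 closed, an opened share of 60.1%. The excess of opened over closed regions thus moved with the length of the lists, but its direction did not turn.

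Opened regions were mostly weak, distal peaks. Their median rank percentile in the HRG lists was 14.9, from 0.219 to 68.5, against 56.5 for the regions shared by all 4 libraries. Because no list held a peak with a score under 200, a region without a peak may still have been accessible below that limit. Only 240 opened regions (6.90%) lay within 1 kb of a protein-coding start, compared with 26.7% of all regions and 32.0% of the shared ones. The median distance to the nearest start was 26.7 kb for opened regions, 39.5 kb for closed regions and 13.8 kb for all regions. Closed regions were also weak, with a median percentile of 10.4 in the control lists, and 36 (4.60%) were at promoters. This order of the promoter shares turned when peaks were trimmed to 400 bp before merging (9.06% of opened and 17.5% of closed regions). Their median GC content of 42.8% was below the 49.8% of opened regions and the 53.2% of all regions.

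The strongest opened region lay on chromosome 16 (chr16:66081839-66082333) in intergenic sequence more than 100 kb from any protein-coding start. It ranked at 69.8 and 67.2 in the HRG libraries and had no peak in either control library. At 1 h it already had a peak under control (34.7 and 28.7), and HRG placed it at 66.7 and 66.0. The region was thus high in all 6 HRG libraries, and its control value at 12 h was lower than that at 1 h.

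The opened region nearest SLC25A51, which encodes a mitochondrial NAD transporter, reached 67.5 and 69.1 in the HRG libraries at 12 h. Its EGF values at 12 h were 61.6 and 65.7. An intronic region on chromosome 2 more than 100 kb from a start (chr2:29583089-29584002) reached 62.7 and 65.0 at 12 h, against 9.66 and 5.28 after 1 h of HRG, and had no peak in any control or baseline library. That region and the one nearest PARL, a mitochondrial rhomboid protease gene, were low at 1 h and high at 12 h. The PARL region went from 4.87 and 20.6 after 1 h of HRG to 62.3 and 58.7 after 12 h, and was at 57.6 and 67.1 after 24 h.

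NFATC2, which encodes a calcium-regulated transcription factor, had an intronic region with the opposite course. Its HRG values were 82.9 and 84.6 at 1 h, 55.8 and 65.7 at 12 h and 20.9 and 25.6 at 24 h. Control libraries had a peak there at 1 h only (41.8 and 41.0). The other 5 of the 10 strongest opened regions lay in an intron of the phospholipid flippase gene ATP8B1 (64.0 and 63.1), in intergenic sequence on chromosome X (65.3 and 61.7), in an intron of the endosomal sorting gene TOM1 (59.7 and 64.3), upstream of the axon guidance gene SLIT3 (60.4 and 59.3) and upstream of the scavenger receptor gene CD163 (59.5 and 57.5). All 5 had peaks at 1 h under HRG and in at least 1 control or baseline library at another time, so their absence in both 12 h controls did not extend to the other controls.

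The strongest closed region had its summit 844 bp past the 3′ end of NR4A1, an immediate early gene for a nuclear receptor (chr12:52059511-52060814). It ranked at 74.6 and 68.9 in the control libraries at 12 h and had no peak after 12 h of HRG or EGF. At 1 h the pattern was the reverse, with 84.0 and 86.3 after HRG and no peak in either control library. At 24 h the control libraries were at 66.6 and 64.8 and the HRG libraries again had none. A pair of further closed regions lay inside NR4A1, with control values of 26.8 and 11.9 and of 40.2 and 31.7. All 3 closed regions of the 124 near listed immediate early genes belonged to NR4A1 (2.42%, against 1.14% of all regions within 100 kb of a start).

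The next closed regions by rank lay on chromosome 6 far from any gene (chr6:120141655-120142510, 57.4 and 59.1 in control), upstream of the heparan sulphate sulphotransferase gene HS6ST1 (54.2 and 53.9), on chromosome 7 (43.4 and 49.3), in IQSEC3 (50.5 and 39.2) and in the zinc finger gene ZNF236 (44.5 and 45.1). The chromosome 6 region had peaks in both baseline libraries (69.1 and 69.4) and after 1 h of HRG (61.5 and 71.9), and none after 12 or 24 h of HRG. The HS6ST1 region, in contrast, had no peak after 1 h of HRG and regained a weak one at 24 h (11.7 and 34.6).

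AP-1 matches set the opened regions apart from the closed ones. Within 100 bp of the summit, 1544 of the 3476 opened regions (44.4%) held TGANTCA, compared with 31 of the 782 closed regions (3.96%), 15.4% of all regions and 13.2% of the shared ones. Outside promoters the shares were 45.9% of opened, 3.89% of closed and 19.2% of all regions. When the opened regions were ordered by rank percentile and cut into 4 equal parts, the share with a match went from 30.7% in the weakest through 39.1% and 48.3% to 59.5% in the strongest. The matches lay a median of 26 bp from the summit, against 33 bp in shared regions, and 75.7% of them were within 50 bp. Of the 1544, 308 (19.9%) held more than 1 match, compared with 9.85% of shared regions with a match.

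**Figure D1:**
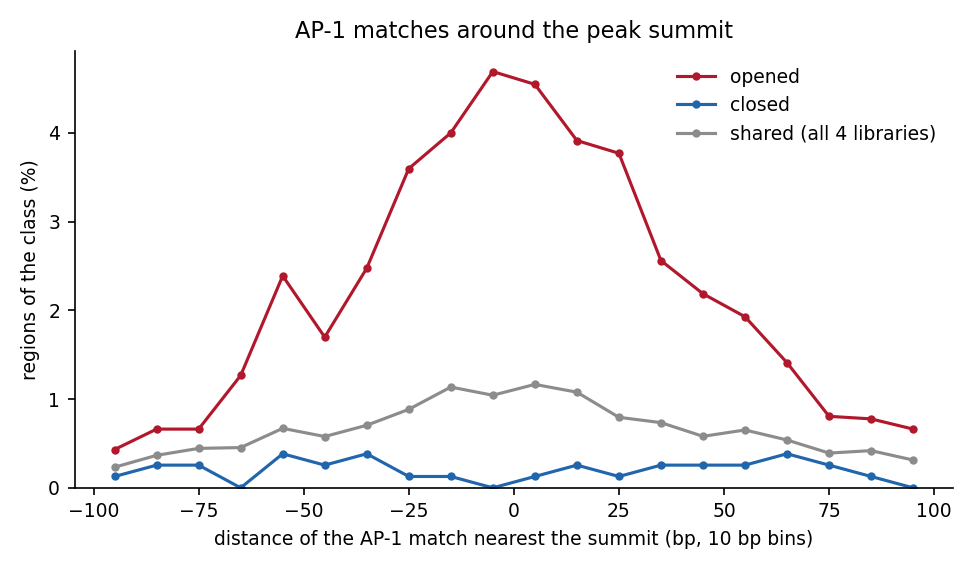
Position of the AP-1 match nearest the peak summit in 10 bp bins (x axis, bp) as a percentage of the regions of each class (y axis), for opened (red), closed (blue) and shared (grey) regions. Matches in opened regions pile up around the summit, while closed regions, of which 3.96% held a match, stay below the shared regions in most bins.

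Regions with rank changes gave the same contrast on different regions. A match was found in 44.3% of the regions that ranked higher after HRG and in 4.73% of those that ranked lower. A match is a stretch of letters and does not show that a factor was bound.

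Closed regions carried other words. GATA matches (AGATAA) were present in 149 closed regions (19.1%), compared with 8.54% of opened and 8.30% of all regions. FOX matches (TGTTTAC) were present in 102 closed regions (13%) and 7.89% of all regions, and SRF matches in 16 closed regions (2.05%) and 0.844% of all. Outside promoters the GATA shares were 19.7% of closed and 10.4% of all regions. The FOX shares there were 13.4% and 9.85%, and the SRF shares 2.14% and 0.900%. The motifs were searched separately on both strands, so a region could count for more than 1 of them. Among 3827 words of 7 letters outside promoters, the word most over-represented in opened regions was ATGACTC, which overlaps the AP-1 consensus (17.1% of opened and 6.67% of all, a ratio of 2.56), followed by the consensus word TGACTCA (39.4% and 15.4%, a ratio of 2.55). The 2 highest in closed regions were ATATAAA (ratio 2.96) and AAGATAA (9.25% and 3.30%). Opened regions had few CTCF matches (0.806%, against 3.46% of all regions) and few KLF and SP matches (GGGCGGG, 3.88% against 14.6%), a motif common at promoters. Outside promoters the CTCF shares were 0.742% of opened and 4.24% of all regions, and the KLF and SP shares 2.75% and 5.36%.

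Among the 43427 regions with a peak in every library, more were called higher than lower after HRG. The limma fit across all these regions called 3201 higher (7.37%) and 338 lower (0.778%) at a Benjamini-Hochberg adjusted p under 0.05. The median difference of all tested regions was 0.829 percentile points, since the longer HRG lists place a shared peak at a higher percentile. With percentiles taken among the tested regions alone, a choice made after this shift was seen, 1865 were higher and 583 lower (76.2% higher, against 90.4%). On the log2 score the numbers were 2102 and 1205 (63.6% higher). The median difference was below 0 on both scales, −0.827 points among the tested regions and −0.0824 on the log2 score. At an unadjusted limma p under 0.05 the balance turned, with 5645 higher and 5991 lower on the first scale and 5094 and 8490 on the second. Higher regions differed by a median of 18.7 points and lower regions by a median of −17.4 points, and 11.5% and 16.9% of them lay at promoters. Without the first or the second HRG library the median difference of all tested regions was 0.711 or 1.11 points. Such a fit takes its spread from the 2 control libraries alone. Its counts therefore cannot show how far the calls rest on either HRG library.

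**Figure D2:**
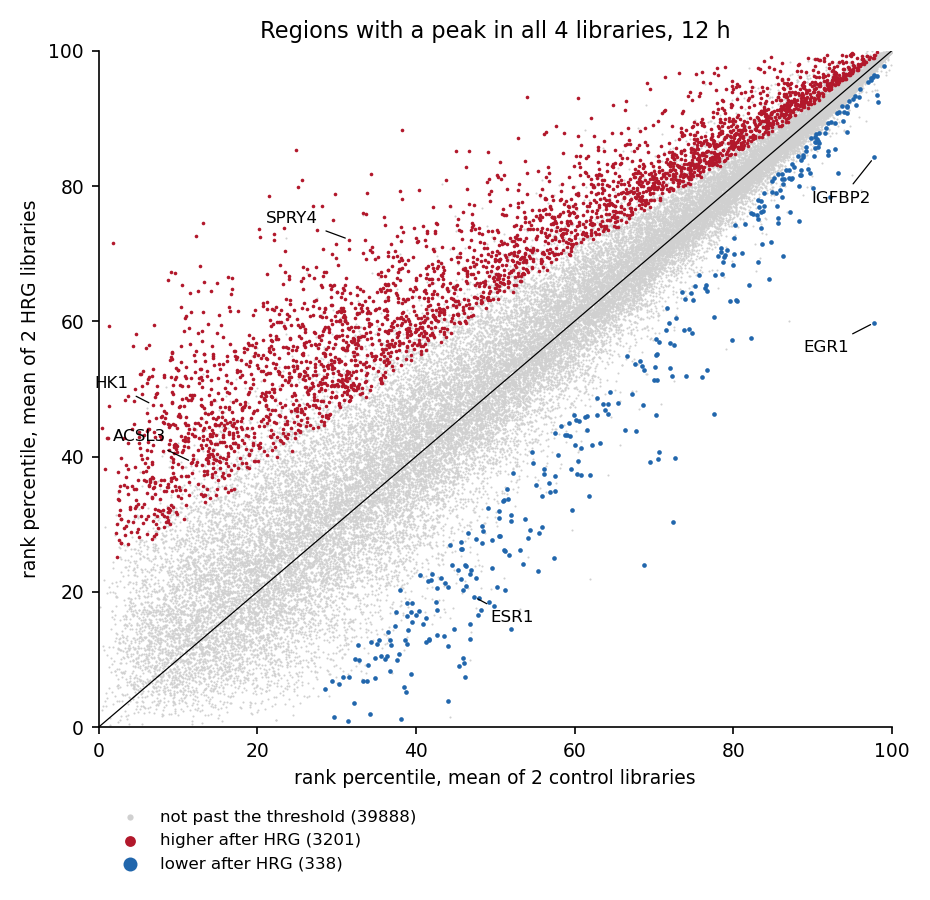
Mean rank percentile of the 2 control libraries (x axis) and the 2 HRG libraries (y axis) for the 43427 regions with a peak in all 4 libraries at 12 h, each point 1 region, with the diagonal as a line. The 3201 higher regions (red) lie above the diagonal. Their mean percentile over the 4 libraries had a median of 57.6 and quartiles of 39.7 and 78.6. The 338 lower regions (blue) lie below the diagonal, with the region past EGR1 farthest to the right of its neighbours.

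The rank of a region also depends on how the peak caller cut it. Of the tested regions, 94.7% held exactly 1 peak in each library. In 217 of the 3201 higher regions (6.78%, against 0.636% of all tested) both HRG libraries had fewer peaks than both control libraries, that is, neighbouring peaks were joined into 1 larger peak after HRG. In 27 of the 338 lower regions (7.99%, against 0.163%) the joining was in control. When the scores of all peaks in a region were summed, 2812 regions were higher and 1198 lower, of which 2558 (79.9% of the 3201) and 302 (89.3% of the 338) were called by both measures. Among regions with 1 peak in every library, 46.9% of the higher and 4.36% of the lower regions held an AP-1 match.

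The 6 higher regions with the smallest p were all of the joined kind. RARA, the retinoic acid receptor gene, had an intronic region 94 bp from an annotated start (chr17:40315701-40318382) at 97.4 and 97.7 after HRG and at 77.7 and 78.2 in control, a difference of 19.6 points (SE 0.581, limma adjusted p = 0.00263). Each HRG library had 1 peak there and the control libraries 3 and 2, and with summed scores the difference was 3.67 points (limma adjusted p = 0.0076). The regions nearest MCFD2, TIMM22, ZBTB7B and SPC24 and 1 intergenic region on chromosome 20 differed by 13.1 to 26.1 points by the highest peak and by 1.84 to 8.95 points by summed scores. All 6 kept a higher rank, with a smaller difference, on summed scores. The ZBTB7B call was lost when the 12 HRG and control libraries of 1, 12 and 24 h shared 1 estimate of the spread (limma adjusted p = 0.231).

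**Figure D3:**
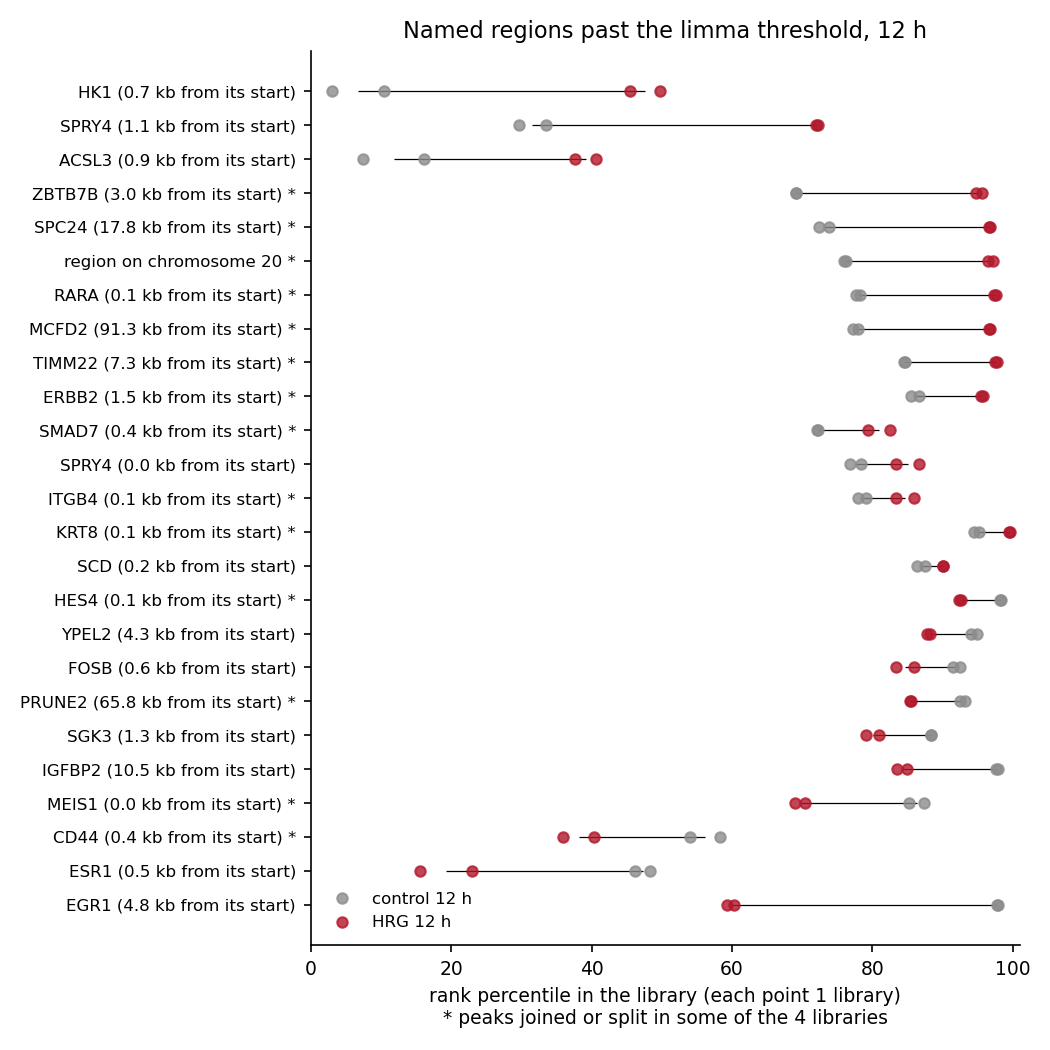
Rank percentile in each of the 2 control libraries (grey) and 2 HRG libraries (red) at 12 h for the named regions past the limma threshold, with a line between the means and the distance to the nearest start in brackets. An asterisk marks regions where a library had more than 1 peak. The HRG and control points do not overlap in any of these regions, which were chosen for their difference, and the EGR1 and SPRY4 regions without an asterisk show the widest gaps beside HK1.

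EGR1, the immediate early zinc finger factor, had the lower region with the smallest p. The summit of this region lies 952 bp past the 3′ end of the gene, and the region itself (chr5:138469103-138471486) overlaps the gene. The region held a single peak in every library. Control libraries were at 97.9 and 97.7 and HRG libraries at 59.3 and 60.3, a difference of −38 points (SE 1.10, limma adjusted p = 0.00263). The difference passed the threshold under all 11 alternatives, with limma adjusted p from 9.18e-05 to 0.0100. After 1 h the same region was at 99.0 and 99.2 with HRG and at 90.9 and 91.8 in control. After 24 h it was at 54.1 and 31.6 with HRG and among the top peaks of both control libraries. HRG values were thus above both controls at 1 h and below them at 12 and 24 h. In the fit of all 3 times the 1 h difference did not pass (7.78 points, limma adjusted p = 0.433), that at 24 h did (−57.2 points, limma adjusted p = 0.000758), and the 12 h effect did not differ from the mean of the other times past the threshold (limma adjusted p = 0.469).

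Regions near 3 further listed genes were lower at 12 h. They were picked after their values were seen. Their lists also held higher regions, 10 beside 3 lower near immediate early genes and 4 beside 2 lower near AP-1 subunit genes. IER2 is an immediate early gene, and 1 region had its summit 680 bp past it. That region was at 83.8 and 80.1 after HRG and at 94.2 and 92.3 in control, a difference of −11.3 points (limma adjusted p = 0.0151). At 1 h it had been higher after HRG (91.1 and 92.6) than in control (82.1 and 85.7). A region 4.04 kb from the start of JUN was at 30.0 and 38.3 after HRG and at 62.8 and 60.8 in control, a difference of −27.6 points (limma adjusted p = 0.0202). After 1 h of HRG the JUN region had been at 69.4 and 82.5, above both 1 h controls (51.4 and 43.8). Near MCL1, an antiapoptotic gene, a region was at 19.6 and 23.7 after HRG and at 41.3 and 41.8 in control (−19.9 points, limma adjusted p = 0.0373), and it was low after 1 h of HRG as well (17.7 and 15.6).

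The other lower regions named by p lay past the 3′ end of IGFBP2, near YPEL2, at HES4 and ISG15, near PRUNE2 and in MEIS1. IGFBP2, which encodes a binding protein for insulin-like growth factors, had 84.9 and 83.5 after HRG and 97.9 and 97.6 in control (−13.5 points, SE 0.606, limma adjusted p = 0.00371). Its region was lower after HRG than in control at 1 h (72.2 and 72.4 against 87.7 and 87.5) and at 24 h (71.5 and 64.0 against 98.3 and 97.0). The YPEL2 region went from 94.0 and 94.8 in control to 88.2 and 87.8 after HRG. Both held 1 peak in every library and kept the call under all 11 alternatives. In the HES4, PRUNE2 and MEIS1 regions the HRG libraries had 2 peaks and the control libraries 1. With summed scores their differences were −0.311, −1.53 and −3.18 points and did not pass (limma adjusted p = 0.608, 0.0735 and 0.130). The part of the peak cut in these 3 calls was not tested.

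The listed genes are described from the receptors and ligands of the HER family onward. Regions near them other than promoters were picked after their values were seen, unless they were named above by strength or by p. The shares over all regions within 100 kb of a start, which stand beside every list, were 5.66% opened, 1.14% closed, 7.08% higher and 0.663% lower. The promoter of ERBB2, the HER2 gene, stood near 100 in every library, and that of ERBB3, the gene of the HRG receptor HER3, was at 98.4 and 98.5 after HRG and at 98.4 and 98.6 in control (limma adjusted p = 0.879). An intronic ERBB2 region 505 bp from another annotated start opened (35.8 and 15.8). A further ERBB2 region was at 95.8 and 95.5 against 86.7 and 85.6, but the controls had 2 peaks there and HRG 1, and the summed difference of 1.73 points had a limma adjusted p of 0.051. An annotated start of NRG2, a relative of HRG, had a weak opened region (17.1 and 2.63).

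Near HER family genes, 9 of 53 regions opened (17.0%, against 5.66% of all regions within 100 kb of a start) and none closed (1.14% of all). Of 37 tested, 4 were higher (10.8%, against 7.08%) and none lower (0.663%). EGFR, the EGF receptor gene, had an intronic region at 56.8 and 54.2 after HRG and at 25.3 and 11.2 in control, a difference of 37.2 points (SE 5.44, limma adjusted p = 0.0221). It was at 58.1 and 59.6 after 24 h of HRG, while 1 of the 2 controls at 24 h had a peak (5.99). The intronic EREG region (epiregulin, an EGFR ligand) was at 75.2 and 78.1 against 46.2 and 55.8, and the TGFA region (transforming growth factor alpha, another such ligand) at 64.6 and 59.9 against 38.7 and 44.4. In ERBB4, the gene of the HRG receptor HER4, an opened region reached 33.1 and 39.4.

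Near AP-1 subunit genes, 3 of 74 regions opened (4.05%), none closed, 4 of 58 tested were higher (6.90%, against 7.08% of all) and 2 lower (3.45%, against 0.663%). The balance turned to 2 higher and 3 lower on the log2 score and to 3 and 4 on summed scores. The promoter of FOSL1 was at 74.2 and 73.6 after HRG and at 76.3 and 76.7 in control, and that of JUN at 98.7 and 99.0 against 99.5 and 99.5 (limma adjusted p = 0.307 and 0.182). FOSB had a lower region 607 bp from its start, at 83.3 and 85.9 against 92.5 and 91.5 (−7.37 points, SE 1.00, limma adjusted p = 0.019), a call that was lost without the first HRG library (limma adjusted p = 0.0614). The 4 higher regions lay near ATF3, BATF3, FOSL2 and JDP2, all coding for partners or relatives of FOS and JUN. The BATF3 region, 32.2 kb from the start, was at 61.7 and 62.2 against 38.3 and 29.4.

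Among the tested regions near the other immediate early genes, 10 were higher (9.90%, against 7.08% of all) and 3 lower (2.97%, against 0.663%). The higher regions lay near MYC (3), EGR3 and IER3 (2 each) and IER5, KLF2 and IER2 (1 each). On the log2 score 6 were higher and 7 lower, and on summed scores 7 and 8. The direction of this list therefore depended on the measure. The EGR1 promoter itself was at 99.7 and 99.7 after HRG and at 99.9 and 99.9 in control (limma adjusted p = 0.607), at the top of the rank scale, where a change can hardly show.

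Genes of MAP kinase feedback inhibitors had 13 opened regions of 140 (9.29%, against 5.66% of all), 13 higher of 107 tested (12.1%, against 7.08%) and none closed or lower. On the log2 score 7 were higher and 4 lower (6.54% and 3.74%, against 4.65% and 2.47% of all). SPRY4, a Sprouty inhibitor of RAS-MAP kinase signalling, carried the largest difference of the list. Its region 1.06 kb from the start (chr5:142325646-142326732) was at 72.0 and 72.2 after HRG and at 33.5 and 29.7 in control, a difference of 40.5 points (SE 2.95, limma adjusted p = 0.00701, and 0.0517 without the first HRG library). After EGF a single peak covered this region and the promoter beside it (95.4 and 93.6). The promoter itself was at 83.4 and 86.7 against 78.4 and 76.8 (7.43 points, limma adjusted p = 0.0416, and above 0.05 in 8 of 11 alternatives).

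The promoter of DUSP6, a phosphatase of ERK, held 1 or 2 peaks per library and did not pass (98.3 and 99.8 against 99.8 and 98.4, limma adjusted p = 0.993), whereas regions 18.1 and 64.9 kb from its start did. The first was at 71.9 and 75 against 52.3 and 48.0 and the second at 88.4 and 89.3 against 76.0 and 76.7. SPRED1, another inhibitor of the pathway, had a region 35.8 kb from its start at 67.3 and 65.6 against 38.1 and 37.2 (28.8 points, limma adjusted p = 0.0109). ERRFI1, an inhibitor of EGFR and its relatives, had an opened region with an AP-1 match (46.8 and 27.5).

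Adhesion, matrix and motility genes had the largest share of higher regions of the 14 pathway lists, 14 of 71 tested (19.7%, against 7.08% of all). These 14 lay near only 4 of the 21 genes. Of 110 regions, 12 opened (10.9%, against 5.66% of all) and 2 closed, and 1 was lower. On summed scores, 13 of 71 were higher (18.3%, against 6.25% of all). Among regions with 1 peak in each library 15 of 66 were higher (22.7%), a smaller share than the 16 of 64 of the EMT list. ITGB6, an epithelial integrin subunit, had 7 higher regions and 1 opened region (42.9 and 44.5). The ITGB6 region 24.3 kb from the start was at 76.7 and 75.7 against 48.3 and 43.7. ITGA3 had 4 higher regions, and ITGA2 an opened region 1.56 kb from its start with an AP-1 match (37.1 and 37.2). The urokinase gene PLAU and its receptor gene PLAUR had opened regions at 35.6 and 32.5 and at 23.9 and 13.1. At promoters, TNC opened (4.22 and 17.3) and ITGB4 was at 83.3 and 86.0 against 79.0 and 78.0 (6.12 points, limma adjusted p = 0.0467), a call lost in 8 of 10 alternatives. CD44 was at 36.0 and 40.4 against 58.3 and 54.0, where HRG had 2 peaks and control 1 and the summed difference of −3.83 points had a limma adjusted p of 0.501.

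EMT factors and cadherins are genes linked to loss or keeping of the epithelial state. They had 14 opened regions of 95 (14.7%, against 5.66% of all) and 11 higher of 67 tested (16.4%, against 7.08%), with 2 closed and 1 lower. The higher regions lay near 4 of the 17 genes. CDH1, the epithelial cadherin gene, had an intronic region 4.66 kb from its start at 41.2 and 46.0 after HRG and at 4.5 and 9.48 in control, a difference of 36.6 points (SE 4.34, limma adjusted p = 0.0145). It stood at 10.2 and 23.1 after 1 h of HRG, close to the 1 h controls (21.2 and 19.9), and at 52.9 and 59.3 after 24 h, above both 24 h controls (25.9 and 17). SMAD3, a mediator of TGF-beta signalling, had 3 opened and 2 higher regions, of which the strongest was at 52 and 56 against 23 and 15. In TGFB2, a region was lower, at 35.0 and 39.6 against 59.8 and 61.8. The SMAD7 promoter region was at 79.4 and 82.6 against 72.3 and 72.2 (limma adjusted p = 0.0329), but its summed difference was −0.046 points (limma adjusted p = 0.988).

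**Figure D4:**
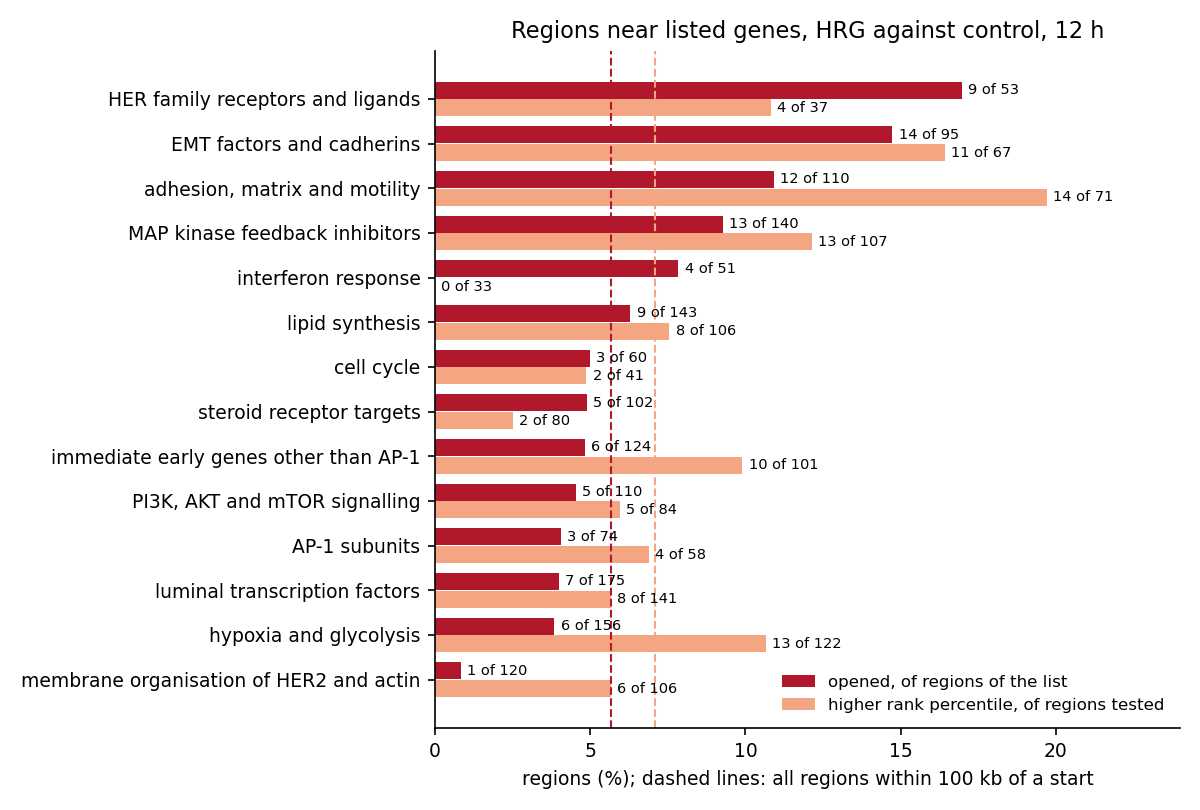
Share of the regions of each pathway list that opened after HRG at 12 h (red) and share of its tested regions that ranked higher (orange), in percent, with counts beside the bars and the same shares over all regions within 100 kb of a protein-coding start as dashed lines (5.66% and 7.08%). HER family, EMT, adhesion, feedback inhibitor and lipid synthesis genes lie right of both lines. AP-1 subunit, PI3K, luminal factor, steroid target, cell cycle and membrane organisation genes lie left of both, and the other 3 lists right of 1 line only.

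Hypoxia and glycolysis genes had 13 higher regions of 122 tested (10.7%, against 7.08% of all), none lower, and 6 of 156 opened (3.85%, against 5.66%). On summed scores 15 were higher and 3 lower. HK1, the hexokinase that starts glycolysis, had a large difference at a promoter. Its region 706 bp from an annotated start was at 49.8 and 45.5 after HRG and at 3.08 and 10.5 in control, a difference of 40.9 points (SE 4.52, limma adjusted p = 0.0132, and 0.0665 and 0.0815 when either HRG library was left out). A region near ENO1, the enolase gene, was at 67.9 and 71.3 against 38.9 and 40.4. An opened region of 33.6 and 61.3 lay 29.9 kb from VEGFA, an angiogenic factor. NDRG1 had weak opened regions at a pair of promoters (15.6 and 0.513, and 6.29 and 1.09).

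Near lipid synthesis genes, 9 of 143 regions opened (6.29%, against 5.66% of all) and 4 closed (2.80%, against 1.14%). Of 106 tested, 8 were higher (7.55%) and 2 lower (1.89%), and on the log2 score 6 were higher and 7 lower, so that the balance turned. ACSL3, an acyl-CoA synthetase, had a promoter region at 40.7 and 37.7 against 16.1 and 7.49 (27.4 points, SE 4.70, limma adjusted p = 0.0311), lost in 4 of 10 alternatives. The SCD promoter, for a fatty acid desaturase, was at 90.0 and 90.1 against 86.4 and 87.5 (3.10 points, limma adjusted p = 0.0456), lost in 7 of 11. Opened regions lay at FASN, the fatty acid synthase (23.7 and 12.3), and at HMGCS1 of sterol synthesis (1.86 and 2.79). Of the 4 closed regions, 3 lay in ACACA, the acetyl-CoA carboxylase gene.

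Near steroid receptor targets, 4 of 80 tested regions were lower (5.00%, against 0.663% of all) and 2 higher (2.50%), whereas 5 of 102 regions opened (4.90%) and 1 closed. Among regions with 1 peak in each library 6 were higher and 4 lower. The lower regions lay near GREB1, SIAH2 and BCL2, genes known as targets of the oestrogen receptor. SIAH2 had the largest of these differences, at 2.45 and 9.52 after HRG and at 35.5 and 41.6 in control. GREB1 was at 23.1 and 23.3 against 46.6 and 44, and at 0.105 and 0.787 after 1 h of HRG, against 34.5 and 21.3 in the 1 h controls. At 12 h of EGF the GREB1 region was at 42.1 and 41.4.

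Luminal transcription factor genes had 8 of 141 tested regions higher (5.67%) and 5 lower (3.55%, against 0.663% of all), and 7 higher and 8 lower on the log2 score, where the balance turned. Of 175 regions 7 opened and 1 closed. The region at an upstream start of ESR1 (chr6:151689607-151690149) was at 15.5 and 23 after HRG and at 48.4 and 46.3 in control, a difference of −28.1 points (SE 4.13, limma adjusted p = 0.0225), which missed the threshold when any 1 of the 4 libraries was left out (highest limma adjusted p 0.101). It was at 2.79 in 1 of the 2 libraries after 1 h of HRG and absent in the other, and at 42.4 and 48.1 after 12 h of EGF. The stronger ESR1 promoter was at 69.4 and 68.9 against 44.1 and 66.4 (limma adjusted p = 0.312). The FOXA1 promoter (99.8 and 99.8 against 99.8 and 99.8) and the GATA3 promoter (92.7 and 93.0 against 94.0 and 79.5) did not pass (limma adjusted p = 0.956 and 0.466). In PGR, the progesterone receptor gene, a region was at 31.1 and 31.7 against 50.7 and 53.2.

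PI3K, AKT and mTOR genes had 5 of 110 regions opened (4.55%, against 5.66% of all) and 2 closed (1.82%, against 1.14%). Of 84 tested, 5 were higher (5.95%, against 7.08%) and 2 lower (2.38%, against 0.663%), with 5 and 5 on summed scores. AKT2 opened at 1 promoter (39.0 and 29.5), and an SGK3 promoter region was at 79.0 and 81.0 against 88.3 and 88.3 (−8.29 points, limma adjusted p = 0.0138, and 0.0609 without the first HRG library). Cell cycle genes had 3 of 60 opened (5.00%, against 5.66% of all), 2 closed (3.33%, against 1.14%) and 2 of 41 higher (4.88%, against 7.08%). The CCND1 promoter (cyclin D1) was at 87.0 and 85.3 against 82.2 and 80.6 and missed the threshold (4.77 points, limma adjusted p = 0.0541). An intronic region of CDK6, the kinase partner of cyclin D, was at 55.3 and 57.8 against 8.36 and 14.6, a difference of 45.1 points (SE 3.93, limma adjusted p = 0.00907).

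Genes for the membrane organisation of HER2 and actin had 1 opened region of 120 (0.833%, against 5.66% of all) and 6 of 106 higher (5.66%, against 7.08%). On the log2 score 2 were higher and 2 lower. Interferon response genes had 4 of 51 opened (7.84%, against 5.66% of all) and 2 closed (3.92%, against 1.14%). A weak region at IRF9 opened (1.29 and 16.9), and the closed regions lay near IRF2 and IFI6. None of the 33 tested regions whose nearest start belonged to the list passed limma in either direction (on the log2 score 2 were lower). The lower region shared by the promoters of HES4 and ISG15, an interferon response gene, was counted for HES4. Marker genes of other cell types had weak opened regions too, at promoters of MYLK (30.7 and 8.25), KRT5 (9.85 and 9.96) and CD14 (36.7 and 3.44). Of 38 regions near basal markers 6 opened (15.8%), of 33 near endothelial markers 5 (15.2%), of 12 near immune markers 1 and of 13 near fibroblast markers 0. Over all regions within 100 kb of a start the opened share was 5.66%. Luminal markers had 2 of 89 opened (2.25%) and 9 of 78 higher (11.5%, against 7.08% of all). The KRT8 promoter region was at 99.5 and 99.6 against 94.5 and 95.2, with 1 peak after HRG and 2 in control (summed difference 0.964 points, limma adjusted p = 0.0446).

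Opened regions were spread over many genes. Of the 3476, 2754 lay within 100 kb of a start, assigned to 2232 genes, of which 404 had more than 1. Genes with many opened regions, picked after the counts were seen, included ZMYND8 (7 of 38 regions), KCNMA1 (6 of 30) and ZBTB7C (6 of 32). In GRHL3, a grainyhead factor of epithelia, 5 of 9 regions opened. The opened share over all regions within 100 kb of a start was 5.66%.

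The libraries of other times, which the choice of regions had not used, showed how early and how long these regions differed. Regions opened at 12 h had a peak in 43.1 and 53.3% of cases after 1 h of HRG, against 23.9 and 24.1% in the 1 h controls. After 24 h the shares were 71.2 and 72.5% with HRG and 18.2 and 24.7% in control. The HRG and control libraries did not overlap at either time, although 2 against 2 libraries cannot give an exact p below 0.333. At baseline 15.6 and 25.9% had a peak, so 0% in the 12 h controls is what the rule set and not the level of untreated cells. Of the opened regions, 1608 (46.3%) had no peak at baseline or in any control library, and 341 (9.81%) also had one in all 6 HRG libraries.

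**Figure D5:**
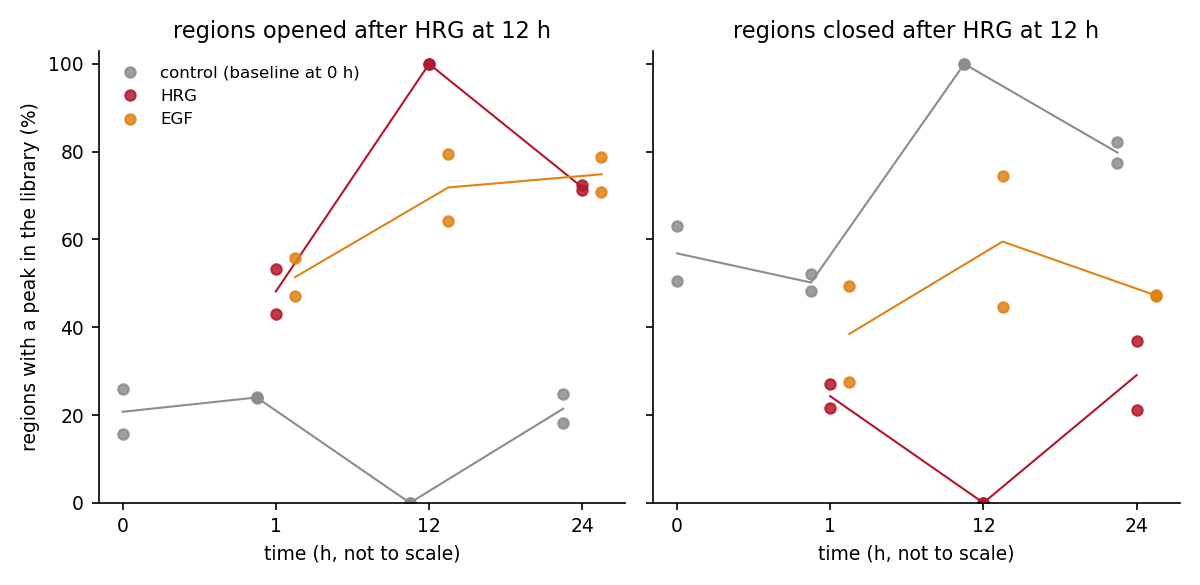
Percentage of the 3476 opened (left) and 782 closed (right) regions with a peak in each BT474 library (y axis) at 0, 1, 12 and 24 h (x axis, not to scale), with control and baseline in grey, HRG in red, EGF in orange, points as libraries and lines through the means. The 12 h values of HRG and control are fixed by the rule at 0 or 100%. At 1 and 24 h, HRG libraries lie above control for opened regions and below control for closed regions.

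The same rule was applied at the other times over the 57555 regions merged at 12 h. Regions without a peak in any of the 4 lists of 12 h were therefore not counted. At 24 h the rule opened 2197 regions (3.82%), 1367 of which had opened at 12 h (39.3% of the 12 h regions and 62.2% of the 2197). At 1 h it opened 1379 (2.4%), of which 715 were shared (20.6% and 51.8%). A group of 779 opened regions (22.4%) had peaks in both HRG libraries at 24 h and none at 1 h, compared with 153 (4.40%) the other way round. Only 262 (7.54%) had no peak in any HRG library of 1 or 24 h. Closed regions had a peak in 21.6 and 27.0% of cases after 1 h of HRG and 48.2 and 52.2% in control, and in 21.2 and 37.0% against 77.5 and 82.1% at 24 h. By the rule, 271 closed at 24 h as well (34.7% of the 782 and 21.8% of the 1245 closed there, 2.16% of all regions) and 128 at 1 h (16.4%, against 3.05% of all).

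Of the 3201 higher regions, 2927 could be tested at the other times. At 24 h their median difference was 12.4 points (−0.424 over all tested regions) and 1811 (61.9%, against 8.59% of all) were higher and 12 lower. At 1 h the median was 2.97 points (−0.207 over all), with 575 higher (19.6%, against 3.66%) and 228 lower (7.79%, against 6.49%). Of 268 lower regions, 96 (35.8%, against 3.02%) were lower at 24 h and 72 (26.9%) at 1 h, with 0 and 5 higher.

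A direct test of the HRG effect at 12 h against the mean of the effects at 1 and 24 h called 109 regions larger at 12 h (0.285% of 38267) and 0 smaller (0.0%), with 4089 and 479 at an unadjusted limma p under 0.05 and a median shift of 1.52 points. Of the 109, 74 were among the higher regions at 12 h and 24 had fewer, joined peaks in both HRG libraries at 12 h. The TIMM22 region exceeded the other times by 21.5 points. At 1 h it had been lower after HRG (76.7 and 80.1 against 96.5 and 96.0). The KRT8 promoter region exceeded them by 3.83 points.

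EGF at 12 h was compared with HRG because EGF binds EGFR and not HER3. The EGF libraries had a peak in 64.2 and 79.5% of the regions opened by HRG and in 44.6 and 74.4% of those closed by it. Over all regions the shares were 88.4 and 91.4%. With equal numbers of top peaks in every BT474 library, EGF held 40.2 and 47.6% of the opened regions, against 65.5 and 64.9% for HRG. It then held 18.4 and 33.1% of the closed regions, against 80.1 and 78.0% for the 12 h controls. Against the shared control libraries, HRG gave 3201 higher and 338 lower regions of 43427 and EGF 1027 and 17 of 42692. These counts share their controls but come from separate fits of 4 and of 6 libraries, whose estimates of the spread differ. They do not show that the ligands differ. Tested directly, HRG ranked 4 regions higher than EGF (0.00937%) and 2 lower (0.00468%), with 619 and 1429 at an unadjusted limma p under 0.05.

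The 6 regions, picked by that result, were ZCCHC3, LSS, MIDEAS and ENSG00000241489 (higher) and SPDEF and NSMCE1 (lower). In all 4 higher regions each HRG library had 1 peak and each EGF library 2. At ZCCHC3, LSS and MIDEAS the control libraries also had 1 peak each, HRG did not differ from control past the threshold (limma adjusted p = 0.319, 0.261 and 0.795), and EGF minus control was −17.4, −16.3 and −4.68 points (limma adjusted p = 0.000869, 0.000869 and 0.00268). At the NSMCE1 promoter HRG had 2 peaks and EGF 1, with values of 6.7 and 3.79 against 58.3 and 58.3. At SPDEF, a luminal factor gene, the EGF peak also covered the next region (98.2 and 97.9 against 80.2 and 81.0 after HRG). All 6 differences thus coincided with a different cut of the peaks. Without the first HRG library 0 regions passed in either direction, and 263 higher and 79 lower regions were called without the first EGF library.

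In BT474R, HRG libraries had a peak in 37.9 and 42.7% of the opened regions and control libraries in 12.9 and 23.5%. These lists covered 64.8 and 68.6% and 51.2 and 61.7% of all 57555 regions, compared with at least 83.8% in each of the 4 BT474 libraries at 12 h. Among these 57555 regions the rule opened 2490 in BT474R (4.33%) and closed 18 (0.0313%). Regions without a peak in any of the 4 BT474 libraries at 12 h were not counted. Of the 3476 BT474 regions, 466 were among the 2490 (13.4% of the 3476 and 18.7% of the 2490). A difference between the lines was not tested.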

How the data were processed

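ATAC-seq peak lists of 40 libraries were read, 4 of which (2 HRG-BT474 and 2 control-BT474 libraries at 12 h) make the main comparison. According to the methods and the labels, the authors trimmed reads with Trim Galore 0.6.6, mapped them to GRCh38.p13 with BBMap and called peaks in each library with Genrich, without pooling replicates. The options used with Genrich were not given in the sources used here. The deposited score (column 7) is the area of a peak's significance as Genrich gives it, with no peak under 200, and it grows with depth and with peak width. It was therefore ranked within each list as a percentile. The lists give no read counts, so the depth is unknown, counting intervals could not be given, and the count model that the study ran on reads was not repeated.

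Peaks on chromosomes 1 to 22 and X that overlapped by 1 bp were merged. Regions with a peak in all libraries of a fit were compared with limma 3.58.1 (R 4.3.3, trended variance) with Benjamini-Hochberg adjustment over all of them, adjusted p under 0.05. The scripts were tested on simulated data. Regions were annotated with the nearest protein-coding start of GENCODE 44 within 100 kb, a promoter being within 1 kb, and motifs were searched on both strands within 100 bp of the summit. Scripts ran under Python 3.11.15 with pandas 2.3.3, scipy 1.17.1 and numpy 2.4.6, sequences were read with samtools 1.23.1 and pysam 0.24.0, and plots drawn with matplotlib 3.10.9.

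Regions were named by rule: the 10 strongest opened and 6 strongest closed, the 6 with the smallest p in each direction, listed genes with a changed promoter (at most 4 per list by p) and 12 fixed promoters. Regions named outside it were chosen after their values were seen. The libraries, gene lists and rules were chosen with earlier results of these data known. Alternatives were a score of at least 400, equal numbers of top peaks, trimmed peaks, another overlap, the log2 score, absent peaks at 0, other windows, a replicate block, 1 spread over 12 libraries and leaving out each library. Summed scores, regions with 1 peak in each library and percentiles among the tested regions were added after the data were seen. Some genes of the lists are not reported here.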

Additional observations from a re-analysis of the deposited data

Results flagged for a closer look

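HRG and EGF were compared directly at 12 h, and 4 regions ranked higher and 2 lower after HRG. The difference was tested in 1 limma fit with all 6 libraries. In the 4 higher regions each HRG library had 1 peak and each EGF library 2. In 3 of them the control libraries had 1 peak as well, and EGF ranked below control.

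The HRG effect at 12 h exceeded the mean of the effects at 1 and 24 h in 109 regions, by the same kind of test over 12 libraries. Among the named regions these included TIMM22, by 21.46 percentile points, and the KRT8 promoter, by 3.83 points. In both, HRG libraries at 12 h had 1 peak and control libraries 2, and the part of this in the difference was not tested.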

How the results depend on the processing

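Equal numbers of top peaks gave 2261 opened and 1502 closed regions, and a score of at least 400 gave 462 closed regions. The stricter score named other regions: only 273 of the 3476 opened and 13 of the 782 closed regions overlapped those it called. Leaving out 1 library gave 4800 to 5297 opened (5297 without the second HRG library) and 1342 to 1661 closed regions, and the closed count was over 1.5 times larger without any 1 of the 4 libraries. The rule then asked for only 1 library in that group and was easier to meet, so these larger counts do not measure stability. Higher regions numbered 4854 with absent peaks at 0, 2102 on the log2 score, 1865 with percentiles among tested regions and 1878 with equal numbers of top peaks. Lower regions numbered 552, 1205, 583 and 563 under these settings, 1198 on summed scores, 641 among regions with 1 peak in each library and 187 at a score of at least 400. Leaving out 1 library gave 198 to 2817 higher and 34 to 161 lower regions, with the lowest counts without the first or the second HRG library (198 and 34, 227 and 63) and 161 and 146 lower without either control library. The share of calls that were higher went from 90.4% to 63.6% on the log2 score, 70.1% on summed scores, and 76.2% and 76.9% with percentiles among tested regions and equal numbers of top peaks.

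HRG against EGF gave 0 to 263 higher and 0 to 79 lower regions when 1 library was left out (0 and 0 without the first HRG library, 0 and 2 without the second, 263 and 79 without the first EGF library, 10 and 44 without the second). The 12 h effect against the other times gave 10 to 458 higher and 0 to 30 lower. It gave 10 and 19 higher without the first or second HRG library at 12 h, 38 and 34 without the first or second control at 24 h, 50 without the second control at 12 h, 67 without the first control at 1 h, 290 without the second HRG library at 1 h and 458 without the first at 24 h.

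The promoter share of opened regions was 14.3% within 3 kb, 8.21% at a score of at least 400 and 7.69 to 10.2% without 1 library, and that of closed regions 9.72%, 8.87% and 5.72 to 8.66%. With peaks trimmed to 400 bp these shares were 9.06% and 17.5%, so that closed regions had the larger share, as they had at a score of at least 400 and without the second control library. The AP-1 share of opened regions was 53.0% within 250 bp, 51.1% with equal numbers of top peaks and 37.2 to 38.6% without 1 library, and that of closed regions 11.4% within 250 bp and 3.8 to 5.9% without 1 library. With equal numbers of top peaks in every BT474 library, HRG minus control was 43.1 points for opened regions at 24 h and −21.4 points for closed regions at 1 h. The SMAD7 promoter region turned to −0.0461 points on summed scores. The shares without 1 library describe the larger sets that the looser rule gave. The cause of the shifts in this paragraph was not tested.

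With the replicate number as a block, 2632 regions were higher and 237 lower, HRG against EGF gave 4 and 1, and the 12 h effect against the other times gave 30 and 0. Deviations of same-numbered libraries correlated at r = 0.0238, and 2 pairs do not show that the numbers pair the samples. Depth is unknown, and a region without a peak may be open below a score of 200. With 2 libraries a group, an exact test of 1 value cannot reach p under 0.333.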
